A study of Mus musculus with 2 samples.

Results

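The HOX cluster genes and the antisense RNA of Hoxa11 were followed in the pregnant mouse uterus with and without repression of vascular endothelial growth factor (VEGF). Every row of the gene table whose symbol names a gene of cluster A, B, C or D with its paralog number, with or without the ending "as" for antisense, was taken as a member. This gave 26 of the 14678 genes listed, namely 25 protein-coding HOX genes and Hoxa11as. Cluster A gave 10 members, cluster B 8, cluster C 3 and cluster D 5. The GENCODE vM1 annotation holds 39 protein-coding HOX genes, and the other 14 (Hoxa6, Hoxa13, Hoxb1, Hoxb13, Hoxc4, Hoxc8, Hoxc9, Hoxc11, Hoxc12, Hoxc13, Hoxd1, Hoxd8, Hoxd12 and Hoxd13) were not analysed here.

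All mice were double transgenic (VEGFtetO/tetO/beta-AKtg/wt), so that the Dox+ controls carried the same tetR-Krab transgene, driven by the beta-actin promoter in cells throughout the body, and the same altered Vegfa alleles as the Dox− mice. Dox+ mice ate doxycycline chow and kept VEGF expression (labelled VEGF-normal, wild type). Regular chow was given to Dox− mice, in which tetR-Krab binds the tetO sites and represses VEGF (labelled VEGF-repression). Per the paper the line was bred on doxycycline food, which was withdrawn from Dox− mice some weeks before RNA was taken. Mice of both groups were littermates. Total RNA of 3 uteri at gestation day 2.5 (G2.5), before implantation, was pooled for each condition, 6 µg was used and 1 library was sequenced by tag profiling, in which short sequence tags are counted for each gene. With 1 library per condition there was no replicate check and no test between conditions, and doxycycline feeding itself cannot be told apart from the level of VEGF.

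The values are copy numbers, the unambiguous tags of a gene in a library, and a change is the ratio of a gene's share of the library's clean tags in Dox− to that in Dox+. Intervals are exact Clopper-Pearson 95% intervals and cover counting error only, not the spread between mice, and tags are not known to be independent molecules. The libraries held 5985925 (Dox+) and 5844314 (Dox−) clean tags, of which 74.1% and 72.2% were counted on genes. Levels are given in TPM, the copies of a gene per 1000000 clean tags, and a count of 3 copies, taken as the floor, was 0.501 TPM in Dox+ and 0.513 TPM in Dox−. Vegfa, the targeted gene, had 247 copies in Dox+ and 125 in Dox−, a ratio of 0.518 (0.415 to 0.645).

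HOX genes encode transcription factors that bind DNA through a homeodomain, and they lie in 4 clusters in which the order of the genes along the chromosome follows the body region where they act. The highest-numbered paralogs pattern the posterior body, including the reproductive tract, where HOXA10 marks the uterus and HOXA11 the lower uterus and cervix. In the adult uterus both are made mainly in the stroma, respond to ovarian steroids and are needed for implantation. Hoxa11as is a non-coding RNA read from the opposite strand of the Hoxa11 locus.

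In Dox− the copies of Hoxa10 were 2.87-fold lower, those of Hoxa11 3.20-fold lower, those of Hoxd9 2.63-fold lower and those of Hoxa11as 11.3-fold lower. Hoxd10, the cluster D paralog of Hoxa10, had almost the same copies in both libraries, as did Hoxb6, while Hoxb7 was 1.29-fold higher. In bulk uterus fewer cells of a type and less RNA per cell cannot be told apart.

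The 250 bases before the annotated start of the posterior members with at least 200 copies over both libraries are shown because these members split into 4 that were lower and 1, Hoxd10, that was not. The sequences were read from NCBIM37, the assembly called mm9, at the gene ends of GENCODE vM1, and run in the direction of transcription. Capitals mark TTTAT on either strand (ATAAA on the other), a core that posterior HOX proteins are known to bind.
Hoxa11as, chr6:52194142-52194391, plus strand: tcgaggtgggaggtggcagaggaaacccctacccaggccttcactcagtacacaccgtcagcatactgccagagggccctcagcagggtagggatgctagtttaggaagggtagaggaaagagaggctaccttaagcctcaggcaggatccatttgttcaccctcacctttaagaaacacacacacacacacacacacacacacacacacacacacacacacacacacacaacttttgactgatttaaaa
Hoxa11, chr6:52196214-52196463, minus strand: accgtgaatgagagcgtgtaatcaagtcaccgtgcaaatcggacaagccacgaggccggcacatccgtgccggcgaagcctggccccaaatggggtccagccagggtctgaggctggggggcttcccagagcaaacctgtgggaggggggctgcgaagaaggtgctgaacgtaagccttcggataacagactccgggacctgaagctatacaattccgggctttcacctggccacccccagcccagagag
Hoxa10, chr6:52190854-52191103, minus strand: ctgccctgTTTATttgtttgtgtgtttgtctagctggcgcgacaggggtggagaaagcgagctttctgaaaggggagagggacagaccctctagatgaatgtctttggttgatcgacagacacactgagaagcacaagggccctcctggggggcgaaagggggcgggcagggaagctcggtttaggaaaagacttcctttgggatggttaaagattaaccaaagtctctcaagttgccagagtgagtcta
Hoxd9, chr2:74535487-74535736, plus strand: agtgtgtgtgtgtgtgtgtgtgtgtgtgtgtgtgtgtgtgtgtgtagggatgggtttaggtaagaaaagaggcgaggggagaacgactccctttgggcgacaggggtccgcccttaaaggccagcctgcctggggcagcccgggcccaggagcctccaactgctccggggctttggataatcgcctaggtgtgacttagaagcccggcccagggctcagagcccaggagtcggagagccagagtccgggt
Hoxd10, chr2:74528897-74529146, plus strand: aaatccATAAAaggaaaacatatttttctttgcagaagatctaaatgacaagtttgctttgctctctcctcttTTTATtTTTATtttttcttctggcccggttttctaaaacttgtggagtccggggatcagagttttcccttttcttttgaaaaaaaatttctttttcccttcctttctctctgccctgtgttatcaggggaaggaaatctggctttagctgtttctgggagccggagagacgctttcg
The Hoxa11as window lies inside the intron of Hoxa11, and the Hoxa10 window lies before its farthest annotated exon. TTTAT was found in 2 of the 5 windows, once for Hoxa10 and 3 times for Hoxd10, and in 26.7% of the 14469 windows of that length before genes of the table. The windows of Hoxa11as and Hoxd9 each held an unbroken CA or GT run, of 55 and 44 bases, and 1.21% of all windows held such a run of at least 20 bases. The E-box CANNTG was found in 3 of the 5, against 59.0% of all windows. ACANNNTGT, the core of the progesterone receptor element, was in 0 of the 5 and in 3.92% of all windows, and TATAAA, the TATA box, in 0 of the 5 and in 7.22%. All motifs were searched on both strands, and TATAAA can overlap ATAAA. The Hoxd10 window had a GC content of 38.8% and that of Hoxa11 61.2%, beside a median of 58.4%, and the windows held from 2 CpG (Hoxa11as) to 14 (Hoxa11), beside a median of 13. These are descriptions of the letters in each window, and binding was not measured.

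Hoxa10, the HOX gene with the most copies in both libraries, had 3120 copies in Dox+ and 1060 in Dox−, which was 2.87-fold lower (2.68 to 3.08). It lies at chr6:52181196-52190853 on the minus strand. Among all genes of the table its place by copies went from 177 in Dox+ to 653 in Dox−. Per kilobase of transcript its level was 203 TPM in Dox+ and 70.7 in Dox−.

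Hoxa11, the next gene of the cluster (chr6:52192107-52196213, minus strand), had 2573 copies in Dox+ and 785 in Dox−, 3.20-fold lower (2.95 to 3.47). Its level per kilobase was 160 TPM in Dox+ and 49.95 in Dox−, below that of Hoxa10 in both libraries. The ratio of Hoxa10 was 1.11 times that of Hoxa11 (1.0002 to 1.24), so these neighbours changed by nearly the same factor, and the interval of that comparison only just left out equality.

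Hoxa11as (chr6:52194392-52199798, plus strand) had 1869 copies in Dox+ and 161 in Dox−, 11.3-fold lower (9.64 to 13.4). Its place among all genes went from 325 to 4697. Of the 6547 genes with at least 200 copies over both libraries, 17 (0.26%) were lower in Dox− by at least 10-fold, and Hoxa11as was one of these. The ratio of Hoxa11as was 0.282 times that of Hoxa11 (0.234 to 0.339), so the antisense RNA was lower by a further 3.54-fold (2.95 to 4.27) than the gene it faces.

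**Figure D1:**
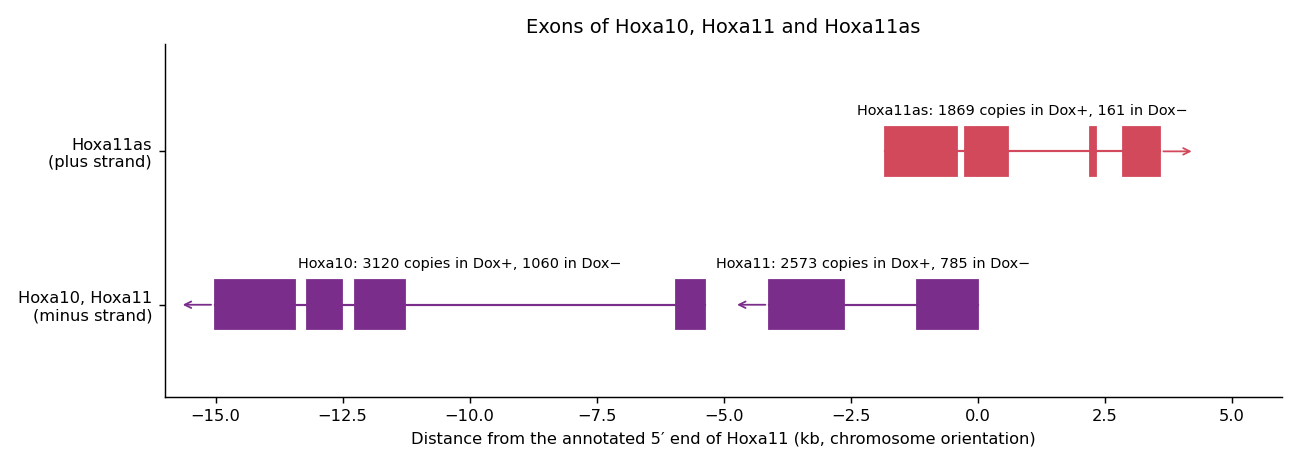
Exons of Hoxa10, Hoxa11 and Hoxa11as (boxes, all annotated transcripts joined) by distance in kb from the annotated start of Hoxa11, with arrows in the direction of transcription and the copies of each gene in the 2 libraries. Hoxa11as starts inside Hoxa11, runs the other way and fell from 1869 to 161 copies, where Hoxa11 had 2573 and 785.

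As a share of the tags of Hoxa11 and Hoxa11as together, the antisense RNA made up 42.1% in Dox+ (40.6 to 43.5) and 17.02% in Dox− (14.7 to 19.6). Per kilobase of transcript the share was 48.0% in Dox+ and 20.7% in Dox−. In Dox+ antisense was thus below sense by copies and near it only per kilobase. In Dox− the sense transcript was well above the antisense RNA by both measures. The gene bodies overlap by 1822 bases, and 1038 bases are exonic in both, of 2689 exonic bases of Hoxa11 and 3073 of Hoxa11as over its 6 annotated transcripts. The authors searched sense and antisense tags and reported antisense levels apart from sense levels. They also report more unambiguous tags than the deposited copies hold on genes. Whether the deposited copies of an overlapping pair were kept apart by strand is not stated in the sources used here. Without strand, tags from the shared bases cannot be told apart.

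Other antisense RNAs listed beside their sense gene, a comparison chosen after the values were seen, are background for this share. Emx2os faces Emx2, a homeobox gene of the uterus known as a HOXA10 target, and its share was 16.2% in Dox+ and 9.98% in Dox−, with 95 and 43 antisense copies against 492 and 388 sense copies. Msx1as faces Msx1, a homeobox gene of the uterine epithelium needed for implantation, and its share was 6.24% and 7.27%, with 117 and 57 antisense copies. Foxl2os faces Foxl2, a forkhead gene, and its share was 36.6% and 47.2%. The ratio of antisense to sense changed by a factor of 0.574 (0.381 to 0.854) for Emx2os, 1.18 (0.832 to 1.65) for Msx1as and 1.55 (1.05 to 2.30) for Foxl2os. For the other listed pairs with at least 20 copies of each gene over both libraries, Slc7a6os with Slc7a6 and Znrd1as with Znrd1, it was 1.08 (0.649 to 1.81) and 1.7002 (0.710 to 4.38). The interval for Hoxa11as, 0.234 to 0.339, lay below each of these intervals.

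**Figure D2:**
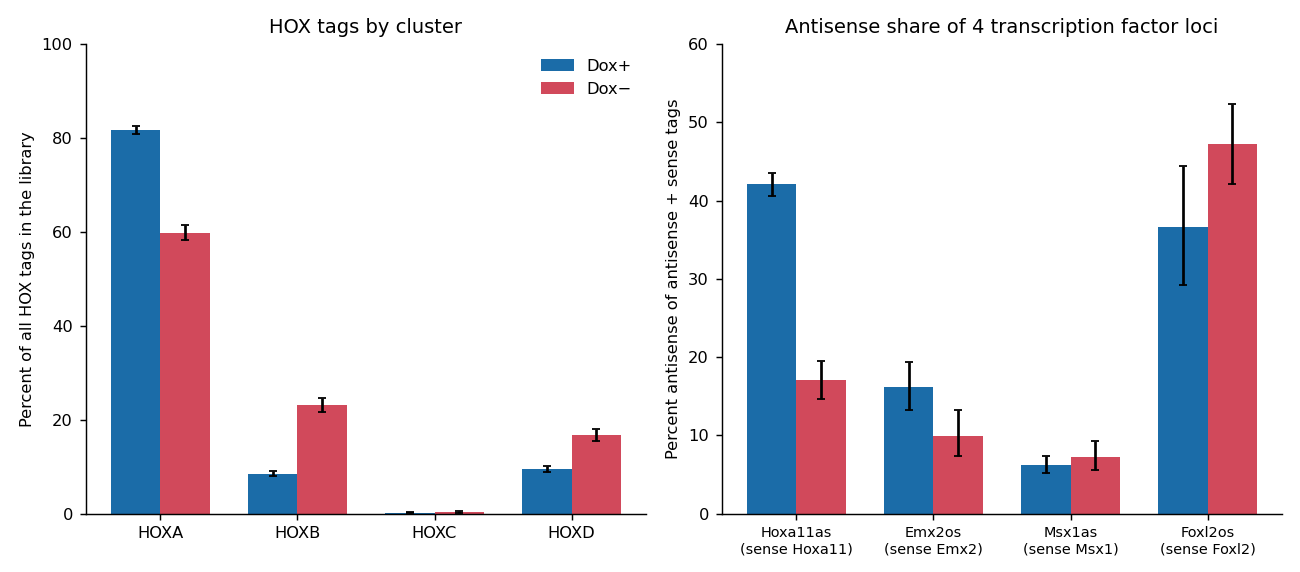
Left, the percent of all HOX tags of a library that fell on each cluster. Right, the percent of antisense tags among the antisense and sense tags of 4 loci. Bars are single libraries, Dox+ in blue and Dox− in red, with exact 95% counting intervals. The HOXA share went from 81.7% to 59.9%, and the antisense share at Hoxa11 from 42.1% to 17.02%.

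In cluster D, Hoxd9 (chr2:74535737-74538265, plus strand), a posterior HOX gene with a known part in limb and axial patterning, had 437 copies in Dox+ and 162 in Dox−, 2.63-fold lower (2.19 to 3.17). Its neighbour Hoxd10 (chr2:74529147-74533163, plus strand) had 401 copies in Dox+ and 381 in Dox−, a ratio of 0.973 (0.844 to 1.12). The 2 neighbours had similar copies in Dox+ and differed in Dox−, and the ratio of Hoxd9 was 0.390 times that of Hoxd10 (0.308 to 0.493). Hoxd9 changed by a factor close to that of Hoxa10, with a ratio of ratios of 1.09 (0.893 to 1.33). Hoxa10 and Hoxd10, paralogs of position 10, differed, with the ratio of Hoxa10 at 0.358 times that of Hoxd10 (0.305 to 0.420).

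In cluster B, Hoxb6 (chr11:96153790-96162883, plus strand) and Hoxb7 (chr11:96145571-96151650, plus strand) belong to the middle positions, which pattern the trunk. Hoxb6 had 233 copies in Dox+ and 241 in Dox−, a ratio of 1.06 (0.881 to 1.27). Hoxb7 had 205 copies in Dox+ and 258 in Dox−, 1.29-fold higher in Dox− (1.07 to 1.56). The ratio of Hoxb6 was 0.822 times that of Hoxb7 (0.630 to 1.07), so their changes did not differ by more than counting error. The Hoxb7 gene body overlaps Hoxb8 by 1069 bases on the same strand, and tags there could belong to either.

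These were the 7 members with at least 200 copies over both libraries, and 4 of them were lower in Dox− by at least 1.5-fold and 0 higher. Over all 6547 such genes 14.7% were lower and 15.2% higher by that fold. The same 4 members were also lower by at least 2-fold, as were 5.62% of all genes, beside 4.61% higher by 2-fold, and by at least 2.5-fold, as were 2.69%. The median log2 ratio of the 7 was -1.40, beside 0.03 over all genes, and they ran from -3.50 to 0.37. With 7 members, 3 of them from 1 stretch of chromosome 6, the median rests on few loci: without Hoxa11as it was -0.72, and over the members with at least 20 copies it was -0.38.

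The order of the 7 by copies was Hoxa10, Hoxa11, Hoxa11as, Hoxd9, Hoxd10, Hoxb6 and Hoxb7 in Dox+. In Dox− Hoxa10 and Hoxa11 still led, followed by Hoxd10, Hoxb7, Hoxb6, Hoxd9 and Hoxa11as. By copies, Hoxd9 and Hoxd10 in Dox+ and Hoxb6 and Hoxb7 in both libraries had overlapping counting intervals, as did Hoxd9 and Hoxa11as in Dox−. Per kilobase the level of Hoxa11as was 147 TPM in Dox+ and 13.01 in Dox−, that of Hoxd9 33.4 and 12.7, that of Hoxd10 25.3 and 24.6, and that of Hoxb6 19.8 and 21.0. Hoxb7 stood at 8.94 and 11.5 by its longest annotated transcript, of 3831 bases, which starts within the Hoxb8 gene body. In Dox− Hoxa11as and Hoxd9 were thus at nearly the same level per kilobase, where in Dox+ the first was far above the other. If each transcript gave tags at 1 site, length would not enter, and the order by copies would be the one to read.

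**Figure D3:**
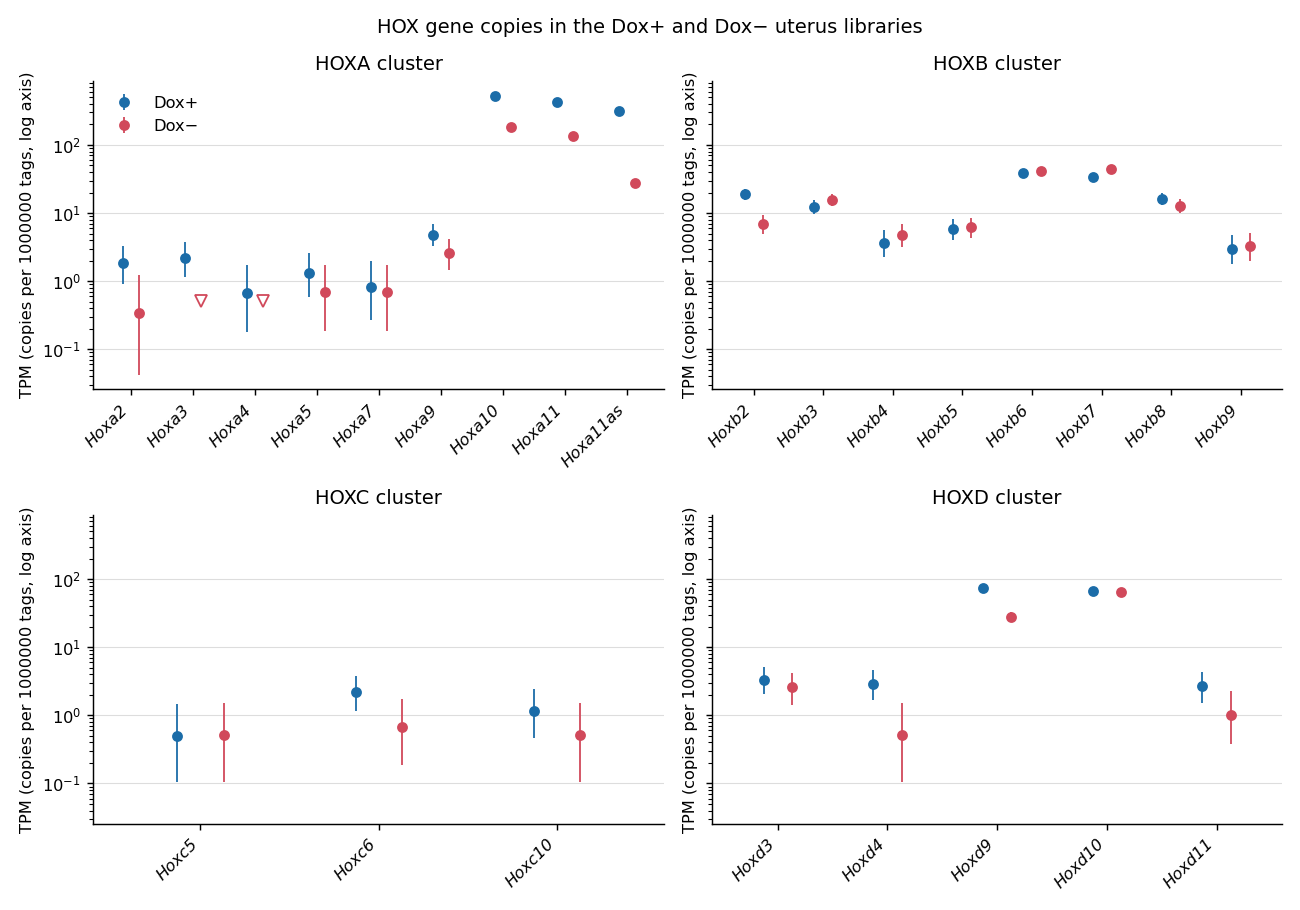
TPM (log axis) of 25 members in the Dox+ (blue) and Dox− (red) library, by cluster. Bars are exact 95% Poisson counting intervals and open triangles mark 0 copies, drawn at the floor of 3 copies. Hoxa10, Hoxa11 and Hoxa11as stood far above the other members in Dox+ and were lower in Dox−, while most HOXB genes lay side by side.

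The other 19 members were rarer, and 10 of them had at least 20 but under 200 copies over both libraries. In cluster B, Hoxb2, a hindbrain patterning gene, had 114 copies in Dox+ and 40 in Dox−, 2.78-fold lower (1.93 to 4.10). Hoxb3 beside it had 74 and 91 copies, a ratio of 1.26 (0.917 to 1.74), and Hoxb8 had 97 and 74, a ratio of 0.781 (0.569 to 1.07). Hoxb2 was the exception among its neighbours, with a ratio 0.287 times that of Hoxb3 (0.173 to 0.470). Hoxb5 had 35 copies in Dox+ and 36 in Dox−, and Hoxb4 had 22 and 28. Hoxb9 had 18 and 19 copies, and no gene from Hoxb3 to Hoxb9 differed by as much as 1.5-fold between the libraries.

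Hoxa9, the cluster A gene next to Hoxa10, had 29 copies in Dox+ and 15 in Dox−, a ratio of 0.530 (0.264 to 1.02). Hoxd3 had 20 and 15 copies, Hoxd11 had 16 and 6, a ratio of 0.384 (0.123 to 1.03), and Hoxd4 had 17 and 3, 5.53-fold lower (1.60 to 29.5). Hoxd3 and Hoxd4 share 7183 bases on the same strand. Among the rarer 19, the interval lay below 1 for 4, namely Hoxb2, Hoxd4, Hoxa2 and Hoxa3, and above 1 for 0. Of the 8131 genes with fewer than 200 copies over both libraries, 16.2% had an interval below 1 and 16.4% above 1.

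The remaining 9 members had fewer than 20 copies over both libraries. Hoxc6 had 13 copies in Dox+ and 4 in Dox−, Hoxa5 had 8 and 4, Hoxa7 had 5 and 4, and Hoxc10 had 7 and 3. Hoxa2 had 11 and 2, a ratio of 0.186 (0.0201 to 0.853). Hoxa3 had 13 copies in Dox+ and 0 in Dox−, 4.23-fold lower if the floor of 3 copies is put in place of 0. The interval of its ratio reached up to 0.336. Hoxa4 had 4 and 0 copies, and the interval of its ratio reached up to 1.55 and so held equality. Hoxc5, with 3 and 3 copies, was at the floor in both libraries and no fold was taken. Hoxa3 overlaps both Hoxa4 and Hoxa5 on the same strand. At this depth a change in most of these genes was not detectable.

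The 4 clusters differed in their summed tags. Cluster A went from 7632 copies in Dox+ to 2034 in Dox−, 3.66-fold lower (3.49 to 3.85), and without Hoxa11as from 5763 to 1873, 3.00-fold lower (2.85 to 3.17). Its members outside Hoxa10, Hoxa11 and Hoxa11as summed to 70 and 28 copies, 2.44-fold lower (1.55 to 3.93), so the direction did not rest on the most abundant genes alone. Cluster B was level, with 798 copies in Dox+ and 787 in Dox−, a ratio of 1.01 (0.914 to 1.12), and without Hoxb2 the ratio was 1.12 (1.01 to 1.24). Cluster D had 891 and 567 copies, 1.53-fold lower (1.38 to 1.71), and without Hoxd9 it had 454 and 405, a ratio of 0.914 (0.797 to 1.05). The sum of cluster D therefore turned on Hoxd9. Cluster C, with 23 and 10 copies, was 2.25-fold lower (1.03 to 5.29).

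In TPM, 9 of the 10 cluster A members were lower in Dox−, as were 5 of 5 in cluster D and 2 of 3 in cluster C, while 6 of 8 in cluster B were higher. Over all clusters 18 members were lower and 8 higher, 2 of the 8 being at or under the floor, and many differed by less than counting error. Of all 14678 genes 48.6% were lower in Dox−. All HOX tags together went from 9344 to 3398 copies, 2.68-fold lower (2.58 to 2.79), or from 0.211% to 0.0806% of the tags counted on genes. Within the HOX tags the share of cluster A went from 81.7% to 59.9%, that of cluster B from 8.54% to 23.2% and that of cluster D from 9.54% to 16.7%. Hoxa10, Hoxa11 and Hoxa11as held 80.9% of the HOX tags in Dox+ and 59.0% in Dox−, and Hoxa11as alone 20.002% and 4.74%.

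By paralog position, members of positions 9 to 13 (those listed are at 9, 10 and 11) without Hoxa11as went from 6601 copies in Dox+ to 2431 in Dox−, 2.65-fold lower (2.53 to 2.78). Positions 4 to 8 were level, with 642 and 655 copies and a ratio of 1.04 (0.936 to 1.17). Positions 1 to 3 had 232 and 151 copies, 1.5-fold lower (1.22 to 1.85). Hoxb2 held 114 of the 232 copies. Position 11 was 3.20-fold lower, position 9 2.41-fold and position 10 2.39-fold, but at position 10 this joined Hoxa10, which was lower, with Hoxd10, which was level.

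**Figure D4:**
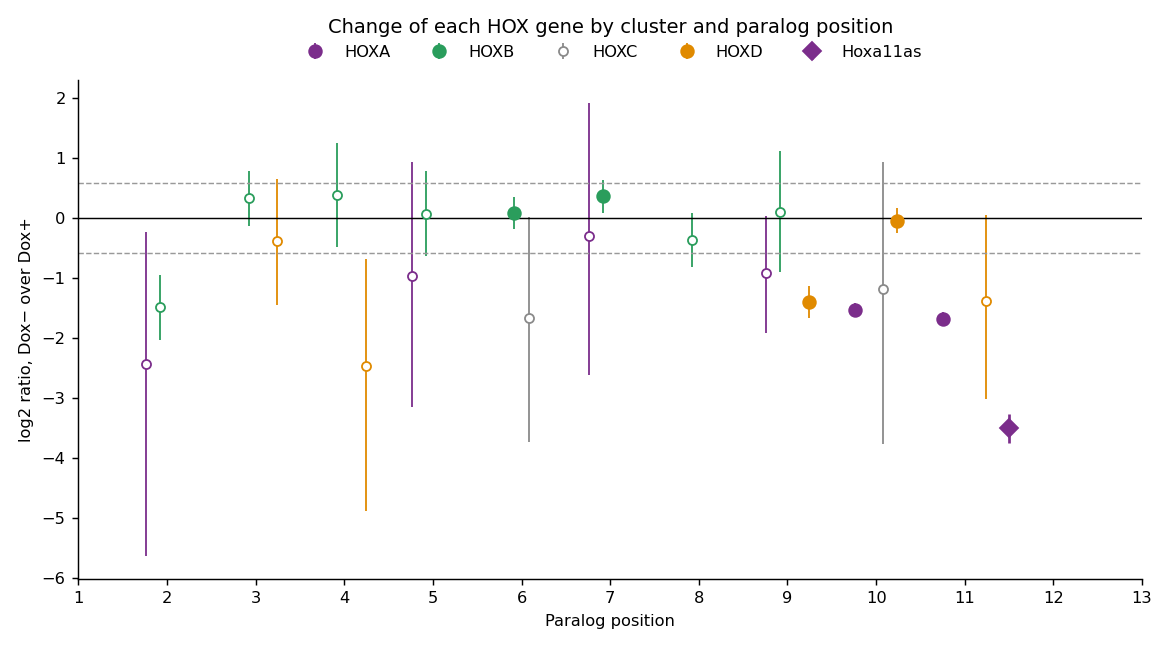
log2 ratio of Dox− over Dox+ (vertical axis) by paralog position for the members with a ratio, coloured by cluster, with exact 95% counting intervals. Filled points have at least 200 copies over both libraries, open points less, dashed lines mark 1.5-fold and the diamond is Hoxa11as, set to the right of position 11. HOXB points lie within the dashed lines apart from Hoxb2, and the HOXA points of positions 10 and 11 lie at -1.52 and -1.68.

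Paralogs of 1 position could be compared where both had tags. At position 9 the ratio of Hoxd9 was 0.352 times that of Hoxb9 (0.169 to 0.728), and that of Hoxa9 was 1.39 times that of Hoxd9 (0.676 to 2.77) and 0.494 times that of Hoxb9 (0.181 to 1.32). Hoxd9 thus differed from Hoxb9 by more than counting error, and Hoxa9 from neither. At position 11 the ratio of Hoxa11 was 0.814 times that of Hoxd11 (0.301 to 2.55), and at position 10 that of Hoxa10 was 0.793 times that of Hoxc10 (0.181 to 4.76), both too wide to place.

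Tags that match more than 1 gene were left out by the authors, and HOX genes share their homeobox, so the shared sequence bears on which tags could be counted. The 54 coding bases of the recognition helix, the part of the homeodomain that lies in the major groove of DNA, are shown for 5 of the 6 protein-coding members with at least 200 copies over both libraries. Capitals mark bases that differ from Hoxa10, and the sequences come from the GENCODE vM1 coding transcripts.
Hoxa10: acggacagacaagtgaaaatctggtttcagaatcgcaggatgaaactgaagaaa
Hoxa11: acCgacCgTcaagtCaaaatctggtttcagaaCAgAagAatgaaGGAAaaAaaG
Hoxd10: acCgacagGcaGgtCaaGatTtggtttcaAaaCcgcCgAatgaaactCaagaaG
Hoxb6: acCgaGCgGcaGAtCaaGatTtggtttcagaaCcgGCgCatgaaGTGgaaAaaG
Hoxb7: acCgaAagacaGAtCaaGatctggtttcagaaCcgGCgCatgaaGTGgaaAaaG
Hoxa11 differed from Hoxa10 at 14 bases, Hoxd10 at 12, Hoxb6 at 18 and Hoxb7 at 15. A homeobox of 180 bases was found in 25 of the 25 protein-coding members, and over the 300 pairs the identity had a median of 64.4% and ran from 51.1% to 93.9%. Hoxa10 and Hoxd10, which differed in their change, were 78.9% identical there, and Hoxa10 and Hoxa11, which changed by similar factors, 67.8%. Over whole coding transcripts the longest run shared by any pair of the 6 was 37 bases, between Hoxb6 and Hoxb7. Every other pair shared at most 20 bases in a row.

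HOX proteins bind DNA together with cofactors of the TALE homeodomain family (the PBX, MEIS and PKNOX proteins, with the TGIF repressors in the same family). Of 11 listed genes 8 had at least 200 copies over both libraries, and 4 were lower and 1 higher in Dox− by at least 1.5-fold. Meis2 had 563 copies in Dox+ and 287 in Dox−, 1.92-fold lower (1.66 to 2.22), and Tgif2 had 274 and 125, 2.14-fold lower (1.73 to 2.67). Tgif1 had 274 and 558 copies, a ratio of 2.09, and so went the other way from Tgif2. The median log2 ratio of the 8 was -0.32.

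The regulators that hold HOX clusters silent or active showed smaller differences. Polycomb proteins silence HOX genes, and of 15 genes with at least 200 copies over both libraries, 0 were lower and 1, Mtf2, was higher by 1.5-fold, with a median log2 ratio of 0.01. Rbbp4, a histone-binding subunit, had 1314 copies in Dox+ and 1687 in Dox−. Trithorax proteins and the H3K27 demethylases keep HOX genes active, and of 10 such genes 0 were lower and 1, Mll1, was higher, with a median of 0.22. Wdr5, a shared subunit of the MLL complexes, had 447 and 576 copies.

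Of the genes that flank the clusters, Hibadh beside cluster A had 511 copies in Dox+ and 546 in Dox−, a ratio of 1.09, and Mtx2 beside cluster D had 348 and 376, a ratio of 1.11. Hibadh and Mtx2 were thus level where Hoxa10, Hoxa11 and Hoxd9 were lower. Of 28 listed flanking genes and non-coding RNAs, 8 were in the table and 3 had at least 200 copies over both libraries. Among the rarer, Snx10 had 28 and 60 copies, a ratio of 2.19 (1.38 to 3.57). Smug1 had 40 and 73, a ratio of 1.87 (1.25 to 2.82), while Skap1 had 7 and 0. Calcoco1, near cluster C, had 167 and 88 copies, 1.85-fold lower (1.42 to 2.43).

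Of the regulators and targets known for HOXA10 and HOXA11 in the uterus, 15 had at least 200 copies over both libraries, and 5 were lower and 4 higher by at least 1.5-fold. Pgr, the progesterone receptor that acts above Hoxa10, had 687 copies in Dox+ and 1251 in Dox−, a ratio of 1.87, and Esr1, the estrogen receptor, 165 and 262, a ratio of 1.63. Hand2, a progesterone-responsive factor of the stroma, had 985 and 143 copies, 6.73-fold lower (5.64 to 8.07). Ihh, a progesterone-responsive signal of the epithelium, had 646 and 37 copies, 17.05-fold lower (12.2 to 24.4). Msx1 had 1757 and 727 copies, 2.36-fold lower, and the receptor Ptger4, of the prostaglandin E2 group, 188 and 60, 3.06-fold lower. Wnt7a, which maintains Hoxa10 and Hoxa11 in the developing uterus, had 48 and 273 copies, a ratio of 5.83 (4.27 to 8.09), and the integrin gene Itgb3, a HOXA10 target, 255 and 538, a ratio of 2.16. Fkbp4, which assists the progesterone receptor, had 1684 and 1406 copies.

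**Figure D5:**
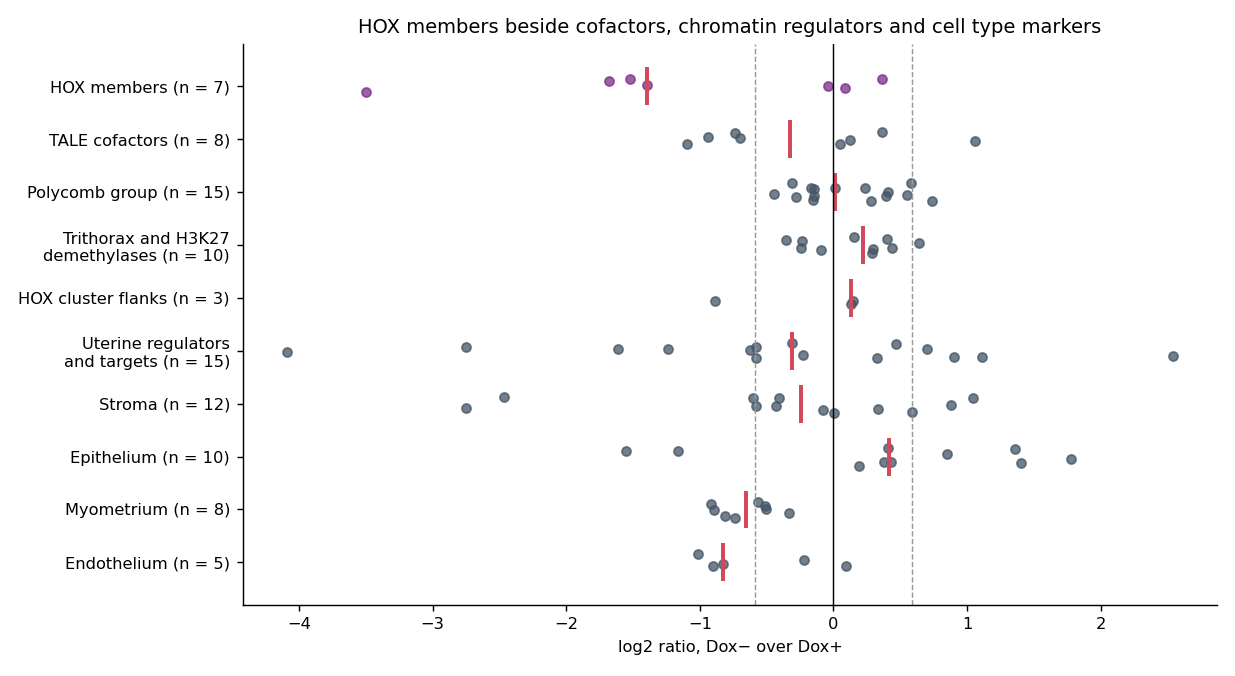
log2 ratio of Dox− over Dox+ for genes with at least 200 copies over both libraries in each list (1 point a gene, spread vertically so that points can be seen), with the list's median as a red line and dashed lines at 1.5-fold. The HOX members have their median at -1.40, Polycomb genes at 0.01, stroma markers at -0.24, epithelium at 0.42, myometrium at -0.65 and endothelium at -0.83.

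Because a bulk uterus mixes tissues, marker levels of each are given beside the HOX values. All 12 stroma markers had at least 200 copies over both libraries, and they summed to 9244 TPM in Dox+ and 11685 in Dox−, a ratio of 1.26 (1.25 to 1.28), led by the collagens Col1a1, Col3a1 and Col1a2. By genes they were split, with 3 lower and 2 higher by at least 1.5-fold, and the stromal surface enzyme gene Mme, with 402 and 71 copies, was 5.53-fold lower. The 9 listed myometrium markers summed to 6539 and 4507 TPM, a ratio of 0.689 (0.679 to 0.700), and 4 of 8 were lower. The 10 endothelium markers summed to 275 and 180, a ratio of 0.656 (0.606 to 0.709), and 3 of 5 were lower. The 11 epithelium markers summed to 1288 and 1749, a ratio of 1.36 (1.32 to 1.40), with 2 of 10 lower and 4 higher. The 8 leukocyte and blood markers summed to 60.1 and 114.6, a ratio of 1.91 (1.67 to 2.17), the 3 ovary and oviduct markers to 46 and 19 copies, and the 6 adipocyte markers to 271 and 200.2 TPM, a ratio of 0.739 (0.685 to 0.797). Of 69 listed markers 59 were in the table, none of these was at 0 in either library, and the other 10 were not analysed here. The stroma sum rested on collagens, and 7 of its 12 genes had a log2 ratio below 0. Hand2 (ratio 0.149) and Mme (0.181) lay below Hoxa10 (0.348), Hoxa11 (0.312) and Hoxd9 (0.380). Every other stroma marker lay above these HOX ratios. Outside the collagens, Vim (0.659), Nr2f2 (0.668), Pdgfra (0.743) and Pdgfrb (0.753) were lower. Lum (1.84) and Dcn (1.26) were higher, and Thy1, with 723 copies in Dox+ and 707 in Dox−, was level. Hand2 and Nr2f2 were also listed among the regulators and targets of HOXA10 and HOXA11. The ovary and oviduct ratio, 0.423 (0.234 to 0.736), had an interval that held the ratios of Hoxa10, Hoxa11 and Hoxd9. It rested on 3 rare genes that differed. Ovgp1 had 25 copies in Dox+ and 2 in Dox−, Gdf9 had 9 and 4, and Star had 12 and 13. The part of tissue makeup in the HOX ratios was not tested.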

How the data were processed

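Tags were counted in 1 Dox+ and 1 Dox− library, each from 3 pooled uteri. The authors discarded tags of low quality, tags of adaptor alone and tags found a single time, searched sense and antisense tags against mouse reference tags, and deposited unambiguous tag counts per gene without normalization. Their TPM values are copies per 1000000 clean tags, without length correction, and the deposited table carries 0.01 at a count of 0. The deposited ratio, log2 ratio and P-value columns hold the authors' own comparison and were not used. The submitters' notes name CASAVA and mm9, and the enzyme and aligner are not given in the sources used here. Per the labels the mRNA was fragmented, while the study's methods describe tag profiling, and this was not resolved.

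Library totals were recovered from counts and TPM, and the TPM of all genes with a tag (14050 and 13948) matched within 0.0051. Ratios of counts to these totals, Clopper-Pearson intervals, exact conditional odds ratios between genes, and sums over clusters and positions were computed with Python 3.11.15, numpy 2.4.6, scipy 1.17.1 and pandas 2.3.3 (figures with matplotlib 3.10.9). Calls used at least 200 copies over both libraries and a fold of 1.5. A count of 0 was set against 3 copies. R 4.3.3 with edgeR 4.0.16 and DESeq2 1.42.0 gave alternative scalings only. Positions, lengths and sequences came from NCBIM37 and GENCODE vM1. On simulated Poisson counts 6202 of 6522 intervals held the true ratio. This checks the calculation alone, since such counts hold no spread between mice and treat tags as independent. Members were reported one by one, those with at least 200 combined copies in full, and from each other list the rule for names took the 3 genes with the most copies and those past 2-fold with at least 200, of which those a comparison turns on are printed. Mtf2, Mll1 and Esr1 were named after their values were seen. A few items are not reported here by name. The members and lists were chosen with earlier results of these data known.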

Additional observations from a re-analysis of the deposited data

How the results depend on the processing

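Of 95 alternative values, 80 stayed within counting error or 1.5 times the count, 15 moved and 0 reversed. A sum or gene was called reversed only where its main interval left out a log2 ratio of 0. The cluster B sum, whose interval held 0, went from 0.015 to -0.010 with TMM and to -0.020 with median ratio. With at least 20 copies over both libraries, 8 members were lower by 1.5-fold, and the median log2 ratio was -0.38. It was -0.88 at a minimum of 100, -1.10 as a mean and -0.72 without Hoxa11as, so the median depends on which members enter. Without Hoxa11as the summed log2 ratio went from -1.87 to -1.59 for cluster A, from -1.42 to -1.17 for all members and from -1.67 to -1.41 for positions 9 to 13. Chosen after seeing the data, cluster B without Hoxb2 went from 0.01 to 0.16 and cluster D without Hoxd9 from -0.62 to -0.13. Per kilobase the share of Hoxa11as was 48.0% in Dox+ and 20.7% in Dox−, and in Dox− it moved from place 7 to 5 among the HOX levels, Hoxb6 from 5 to 4 and Hoxb7 from 4 to 7. Scaling by TMM, median ratio or counted tags moved the median of all genes by -0.02, -0.03 and 0.04 and changed no direction among the members with at least 200 copies called at 1.5-fold. No paired analysis was possible because there is 1 library per condition and the labels carry no replicate numbers. Depth limits the 19 members under 200 combined copies.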
